A study of Mus musculus with 768 samples.

Results

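The Ly49 receptors are a family of cell surface receptors of mouse natural killer (NK) cells, encoded by the Klra genes. The account covers 7 of these genes, Klra1, Klra3, Klra5, Klra6, Klra7, Klra9 and Klra13-ps, of 23127 named genes in the count matrix. They were taken as a list of names, chosen with earlier results of these data known. Each was followed in every cell of the series and in the sum of each library. Counts came from 768 single cells of the thymus, sorted onto 8 plates with 96 wells each. The C57BL/6 mice were 6 to 8 weeks old. A cell needed 1000 detected genes to be kept, which 675 had. The mice were wild type (WT), Tcf7-/-, Vav-cre; Tcf7fl/fl or Lck-cre; Tcf7fl/fl. Tcf7 is the gene of the transcription factor TCF1, on which early T-cell development depends. Vav-cre is active in all blood cells and Lck-cre in T-cell precursors. No mouse with a Cre and intact Tcf7 is among the groups used here. All cells came from CD45-positive, lineage-negative thymocytes without CD4 and CD8, called double negative (DN). Of these, CD44-positive cells without CD25 formed the DN1 gate, sorted from the first 3 genotypes. CD25-positive cells formed the DN2-3 gate, sorted from all 4. Each combination of gate and genotype is 1 plate, except for 2 Lck-cre plates. The labels name no animal, and cells of a plate are not replicates, so no test between genotypes was made.

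Most Ly49 receptors are inhibitory. They bind MHC class I molecules on neighbouring cells and recruit phosphatases that dampen activation. A few, such as Ly49D and Ly49H, are activating and signal through the adaptor DAP12. Each NK cell carries only some members of the family, so that an NK population is a mosaic of receptor combinations, and certain T cells with NK features carry them as well. TCF1 is known to bind the promoter of Klra1 and is needed for normal numbers of NK cells with its product, Ly49A. Among the members, Klra1 encodes Ly49A and Klra7 encodes Ly49G, receptors of H-2D molecules. Klra3 encodes Ly49C and Klra9 encodes Ly49I, which bind the H-2 type of C57BL/6. Klra6 encodes Ly49F, and Klra5 encodes Ly49E, an inhibitory receptor known from fetal NK cells. Klra13-ps is annotated as a transcribed pseudogene.

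The 7 members lie on the minus strand of chromosome 6 within 488 kb (chr6:129898996-130386874, GRCm38, GENCODE vM21). Their order by position is Klra5, Klra6, Klra9, Klra7, Klra13-ps, Klra3 and Klra1. The interval holds 12 Klra genes, and no other annotated gene overlaps a member. Klra5, the member that stood apart in the results below, is at the low-coordinate end (chr6:129898996-129917650), and Klra1 is at the other (chr6:130363917-130386874). Klra9 is at chr6:130178675-130193112.

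A stretch of the start region recurs in most of the members. RefSeq promoter windows of GRCm38.p6, 250 bases before to 50 bases after a gene start, matched 6 of the 7 members in 7 windows. A block of 58 bases recurred in 5 of these windows, 1 for each of 5 members, with 87.9 to 96.6% identity between pairs. The window of Klra1 and the other window of Klra7 do not hold it. It is shown because TCF1 and its relatives bind CTTTG followed by 2 further A or T bases, and 3 of the 5 copies hold such letters at the same place. The sequences are written 5′ to 3′ on the minus strand, with bases 20 to 26 in capitals.
Klra9: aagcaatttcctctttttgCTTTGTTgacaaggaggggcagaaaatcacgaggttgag
Klra7: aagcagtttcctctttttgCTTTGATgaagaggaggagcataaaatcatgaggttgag
Klra6: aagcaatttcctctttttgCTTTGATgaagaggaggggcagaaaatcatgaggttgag
Klra3: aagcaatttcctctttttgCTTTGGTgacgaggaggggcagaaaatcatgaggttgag
Klra5: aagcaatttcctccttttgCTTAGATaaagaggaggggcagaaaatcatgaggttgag
They lie at chr6:130193099-130193156, chr6:130233360-130233417, chr6:130027022-130027079, chr6:130337594-130337651 and chr6:129913263-129913320, in that order. Counted from 1 at the 5′ end of the capitals and against the Klra9 sequence, both Klra7 and Klra6 carry T6A, Klra3 carries T6G, and Klra5 carries T4A and T6A. Searched on both strands were 4 sequences: CTTTGAA was the first, CTTTGAT the second, CTTTGTA the third and CTTTGTT the last. The capitals of Klra9, Klra7 and Klra6 are among them, and those of Klra3 and Klra5 are not. The window of Klra1 holds none of the 4 sequences. Any of the 4 was found in 16.9% of 32851 promoter windows of the same length. The block was picked after the sequences had been read. A match of letters is no binding site, and the absence of one in these windows says nothing about the factor.

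In the DN1 gate 86 cells were kept from WT, 96 from Tcf7-/- and 58 from Vav-cre, with totals of 7112702, 4159404 and 1547512 counts and medians of 66572, 37088.5 and 19293 counts per cell. The 5 DN2-3 libraries kept between 76 and 93 cells each. The knockout labels could not be checked by Tcf7 counts in the DN1 gate: Tcf7 had 134 CPM (CPM is the count of a gene relative to all counts of the library, in parts per 1e6) in WT, 98.6 CPM in Tcf7-/- and 368 CPM in Vav-cre. In the DN2-3 gate it had 862 CPM in WT and 122 CPM in Tcf7-/-, lower under the knockout label, and 964 CPM in Vav-cre, where it was not. The deleted exons are not given in the sources used here, and transcripts without them could still be counted. The Vav-cre values below are those of the library under its label. The Tcf7-/- plates carry labels in another form than the others, polyA RNA in place of total RNA, so a batch and the genotype cannot be told apart there. The DN1 cells were not early T-cell progenitors alone, and the WT library held few transcripts of such progenitors. Of 8 early progenitor markers 5 were under 10 CPM in it, with Cd34 and Mpo at 0 counts, and Kit reached 6 counts in 2 of 86 cells. The 8 NK markers summed to 4937 CPM in WT, with Nkg7 at 2495 CPM and Ncr1 at 0 counts. The 12 T-cell markers summed to 5606 CPM, with Cd3d at 1803 CPM. Every kept WT DN1 cell held 6 or more counts of the CD3 genes, with a median of 231.5, and Eomes was at 0.562 CPM. Cd28 reached 6 counts in 49 of the 86 cells, Cd6 in 37, Cd5 in 33, Cd8a and Cd8b1 in 1 each and Cd4 in 0. No WT cell was thus free of CD3 transcripts, and whether NK cells proper were among the 86 was not tested.

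In WT DN1 the family was abundant and Klra9 was its main member. The 7 genes summed to 2681 CPM (2643 to 2719). Intervals are 95% and exact and cover counting error only. Klra9 held 50.3% of the family's counts, Klra1 13.8%, Klra5 9.62%, Klra3 8.45%, Klra13-ps 8.12%, Klra7 7.33% and Klra6 2.37%. Divided by exon length, Klra9 had 1054 CPM per kb. Klra1 had 209.9 CPM per kb (202 to 218) and Klra13-ps 209 CPM per kb (199 to 219.7), which do not differ beyond their counting error. Klra5 at 184 CPM per kb (176 to 193) and Klra3 at 183 CPM per kb (174 to 192) did not differ either, and Klra7 at 155 and Klra6 at 56.9 CPM per kb followed. The labels name both STRT and Smart-seq2, so it is not known here whether reads covered whole transcripts, and the order rests on that division.

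The DN2-3 gate was nearly free of the family. WT DN2-3 cells held 34 counts of it, 6.83 CPM (4.73 to 9.55), and 24 of those lay in 1 cell with 13 counts of Klra1 and 11 of Klra7. Tcf7-/- DN2-3 held 2 counts, 1 of Klra6 and 1 of Klra9. Vav-cre DN2-3 and both Lck-cre plates held 0 counts, where the floor of 3 counts is 0.685, 0.491 and 0.514 CPM. In WT DN2-3 against WT DN1 all 7 members were at least 2-fold lower on the scale of log2(CPM + 10), where 11.7% of 8702 genes tested were at least 2-fold lower. The family sum had a log2 ratio of -7.32 (-7.51 to -7.10). Klra5 and Klra6 had 0 counts in WT DN2-3, at least 428-fold and 105-fold lower by the floor. By the exact interval they were at least 347-fold and 85.4-fold lower. The NK markers of the list differed along with the members: 7 of 8 were under 10 CPM in each DN2-3 library, and their part in the difference was not tested.

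In DN1 of Tcf7-/- mice, 6 of the 7 members were far lower than in WT and Klra5 was not. At least 2-fold lower were 5.34% of 8579 genes tested. The family sum was 472 CPM (452 to 494), a log2 ratio of -2.48 (-2.55 to -2.41). Without Klra5 it was 129 CPM against 2423 CPM. In DN1 of Vav-cre mice the same 6 members were at least 2-fold lower, where 9.64% of 8798 genes tested were. The family sum was 231 CPM (207 to 256), a log2 ratio of -3.48 (-3.63 to -3.34), and without Klra5 it was 40.1 CPM. Both comparisons share the WT library. No member was at least 2-fold higher in either, where 10.4% and 18% of genes tested were.

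**Figure D1:**
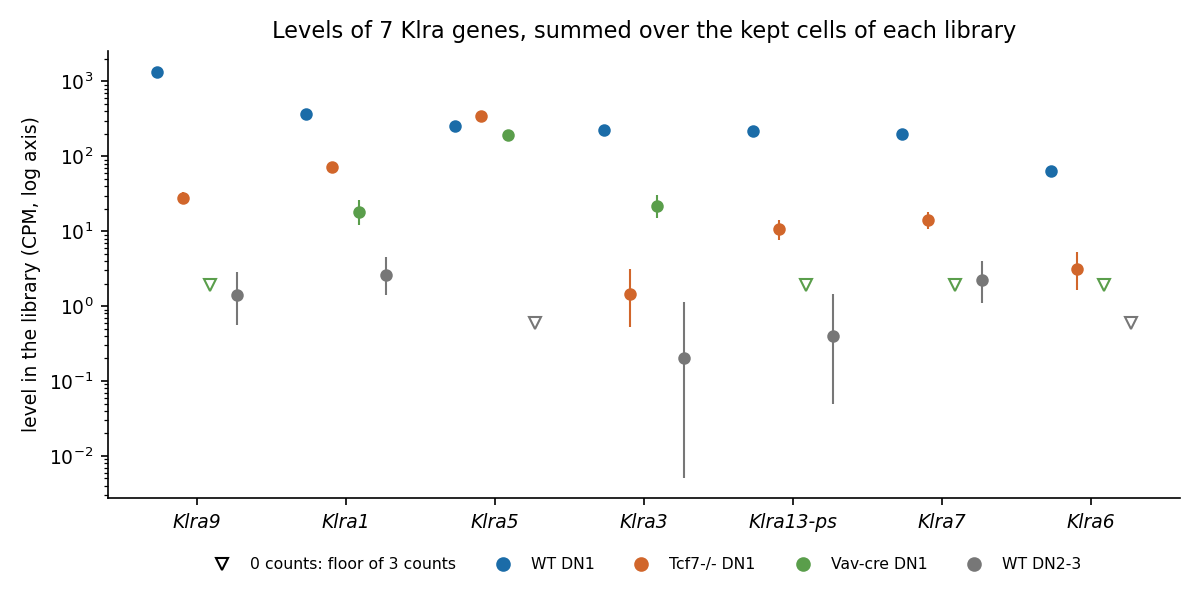
Level of each member in 4 libraries (points, CPM on a log axis) with 95% exact Poisson intervals, and triangles at the floor of 3 counts where a library had 0. Klra5 lies between 191 and 344 CPM in the 3 DN1 libraries, while Klra9 goes from 1348 CPM in WT to 27.9 CPM in Tcf7-/- and 0 counts in Vav-cre.

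Of the receptors for the H-2 type of these mice, Klra9 had 1348 CPM in WT DN1, 27.9 CPM in Tcf7-/- DN1 and 0 counts in Vav-cre DN1. It was 48.3-fold lower in Tcf7-/- (40.3 to 58.6), a log2 ratio of -5.16. In Vav-cre it was at least 695-fold lower by the floor of 3 counts and at least 566-fold by the exact interval. Of the 116 counts in Tcf7-/-, 62 lay in cells with 1 to 5 counts, which went with the WT plate as described below. Without such values in both libraries Klra9 was at 12.98 CPM in Tcf7-/-, 103-fold lower (78.9 to 137). Its counts reached 6 in 56 of 86 WT cells (65.1%, exact interval 54.1 to 75.1%), in 2 of 96 Tcf7-/- cells and in 0 of 58 Vav-cre cells, which allows a share of up to 5.17% by the floor of 3 cells and up to 6.16% by the exact interval. The WT cells past 6 counts had a median of 128.5 and a highest count of 971, and the 2 Tcf7-/- cells had 39 and 15. Klra3 had 227 CPM in WT, 1.44 CPM in Tcf7-/- and 21.97 CPM in Vav-cre. In WT it reached 6 counts in 16 cells, with up to 302 counts in a cell, and in Tcf7-/- in none, where the highest cell held 2. In Vav-cre 33 of its 34 counts (97.1%) came from 1 cell, so that the log2 ratio of -2.89 to WT rests on that cell.

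Of the receptors for H-2D, Klra1 kept a larger part of its level than Klra9. It had 370.2 CPM in WT, 71.6 CPM in Tcf7-/- and 18.1 CPM in Vav-cre DN1, which is 5.17-fold (4.58 to 5.84) and 20.5-fold lower. It reached 6 counts in 26 WT, 12 Tcf7-/- and 2 Vav-cre cells. The Tcf7-/- cells with Klra1 held fewer counts of it, with a median of 21 and at most 36, against a median of 60.5 and a highest count of 447 in WT. Klra7 had 197 CPM in WT, 13.9 CPM in Tcf7-/- and 0 counts in Vav-cre. In Vav-cre it was at least 101-fold lower by the floor and at least 82.3-fold by the exact interval. Of the 58 Klra7 counts in Tcf7-/-, 45 lay in 1 cell, which also held 39 counts of Klra9, 32 of Klra5 and 11 of Klra6.

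The less abundant Klra6 and the pseudogene followed the same pattern. Klra6 had 63.5 CPM in WT, 3.13 CPM in Tcf7-/- and 0 counts in Vav-cre. In Tcf7-/-, 11 of its 13 counts came from the cell with 45 counts of Klra7. Klra13-ps had 218 CPM in WT, 10.6 CPM in Tcf7-/- and 0 counts in Vav-cre, and 31 of its 44 counts in Tcf7-/- came from 1 cell. Each reached 6 counts in 1 Tcf7-/- cell, against 9 WT cells for Klra6 and 20 for Klra13-ps.

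Klra5 was the member whose level over all kept cells stayed within 2-fold of WT. It had 258 CPM (246 to 269.9) in WT, 344 CPM (326 to 362) in Tcf7-/- and 191 CPM (169 to 214) in Vav-cre DN1. The log2 ratio was 0.40 (0.30 to 0.50) in Tcf7-/- and -0.42 (-0.59 to -0.25) in Vav-cre, beyond counting error in both and opposite in sign. It reached 6 counts in 19 of 86 WT cells (22.1%, 13.9 to 32.3%), 20 of 96 Tcf7-/- cells (20.8%, 13.2 to 30.3%) and 4 of 58 Vav-cre cells (6.90%, 1.91 to 16.7%). In those cells the median count was 70 in WT, 37.5 in Tcf7-/- and 74 in Vav-cre, and the highest was 239, 241 and 111. The Klra5-positive cells of WT and Tcf7-/- therefore overlapped in count as well as in share. With the other members lower, Klra5 made up 72.8% of the family's counts in Tcf7-/- and 82.6% in Vav-cre, against 9.62% in WT. The 4 Vav-cre cells held 111, 103, 45 and 31 counts of Klra5, and the cell with 111 carried 44.8% of the family's counts in that library. Without the cell with the most member counts in each library, the log2 ratio of Klra5 was -0.82 in Vav-cre and 0.30 in Tcf7-/-.

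**Figure D2:**
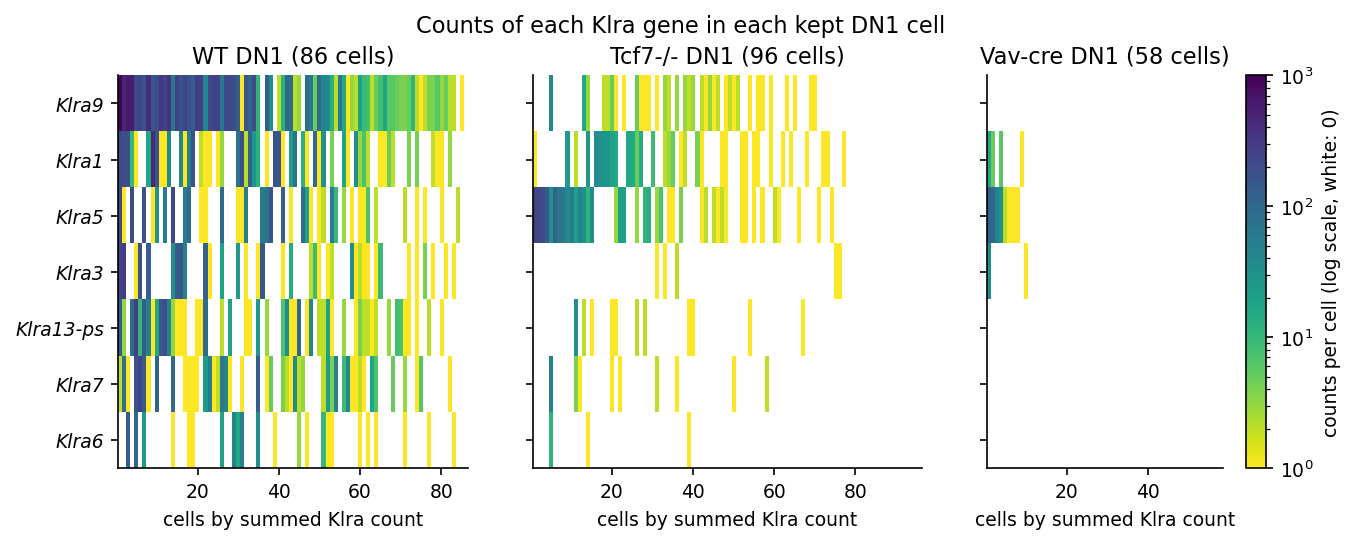
Counts of each member (rows) in each kept DN1 cell (columns, ordered by the summed count of the 7 members), on a log color scale with 0 in white. WT cells combine Klra9 with varied other members, and the darkest cells of Tcf7-/- and Vav-cre are in the Klra5 row, with up to 241 and 111 counts.

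Low counts of the members in Tcf7-/- DN1 went with the WT plate. The 96 barcode numbers are used on all 8 plates, and 86 of them were kept in both WT and Tcf7-/- DN1. Among these, 34 Tcf7-/- cells had 1 to 5 counts of Klra9, and in 31 of the 34 (91.2%) the WT cell with the same barcode number had 6 or more. Of the 50 Tcf7-/- cells with 0 counts of Klra9, 23 (46%) had such a partner, and the partner's median was 5 counts against 169 for the 34 cells. The same held for 9 of 10 cells with low counts of Klra13-ps and 4 of 5 of Klra3, where 13.33% and 14.8% of the cells at 0 had such a partner. For Klra5, 5 of 21 cells with 1 to 5 counts had a WT partner at 6 or more (23.8%), close to the 22.9% of cells at 0. Of the 17 Tcf7-/- cells with 6 or more counts of Klra5, 3 had such a partner, and of 10 with Klra1, 2 did. Both Tcf7-/- cells with 6 or more counts of Klra9 had one, at 197 and 331 counts. In Vav-cre, 7 values of 1 to 5 counts were found over all members, and 1 had such a partner. How far reads were assigned to a wrong plate was not tested. Shares of cells are therefore given at 6 counts or more, and values at 1 count or more are named as such. Of the 1430 Klra5 counts in Tcf7-/-, 34 were in cells with 1 to 5.

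**Figure D3:**
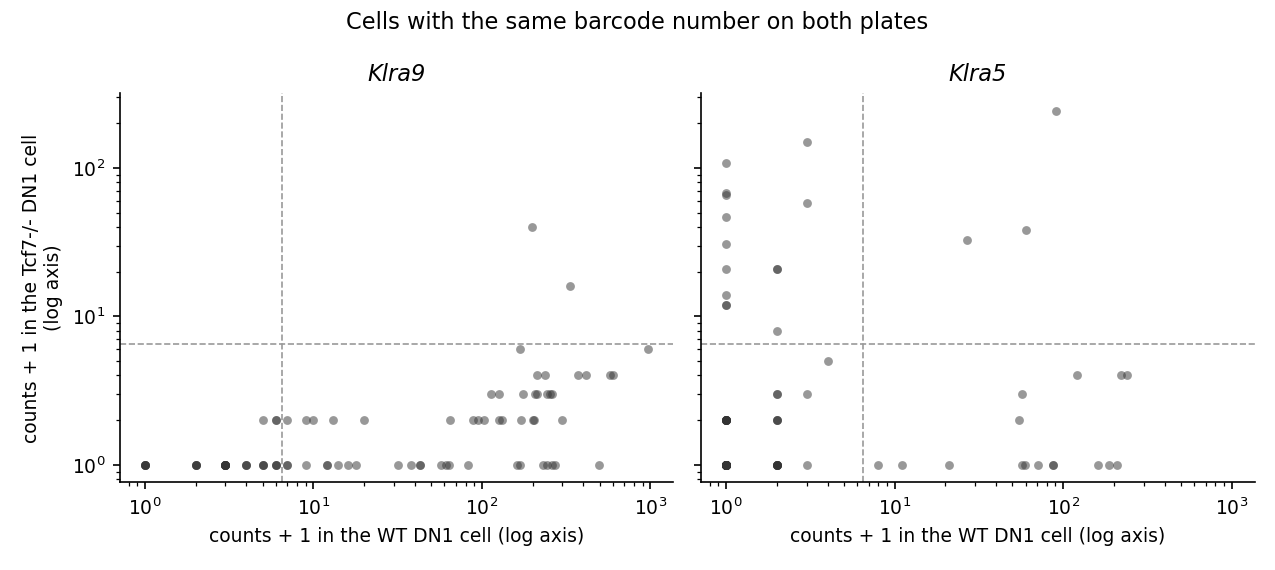
Counts plus 1, on log axes, of Klra9 and Klra5 in the Tcf7-/- DN1 cell against the WT DN1 cell with the same barcode number (86 points a panel, dashed lines between 5 and 6 counts). Tcf7-/- cells with 1 to 5 Klra9 counts lie to the right, at a partner median of 169, and Tcf7-/- cells with many Klra5 counts lie mostly at the left, where the WT partner had 0.

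WT DN1 cells carried several members at once, and cells of both knockout libraries mostly carried none or 1. At 6 counts or more, a WT cell had a mean of 1.92 of the 7 members (SD over cells 1.38), a Tcf7-/- cell 0.385 (SD 0.671) and a Vav-cre cell 0.121 (SD 0.498). At 1 count or more, which takes in the low values that went with the WT plate, the means were 3.85, 1.46 and 0.241. Any member at 6 counts was found in 73 of 86 WT cells (84.9%, 75.5 to 91.7%), 30 of 96 Tcf7-/- cells (31.3%, 22.2 to 41.5%) and 4 of 58 Vav-cre cells (6.90%, 1.91 to 16.7%). At least 2 members at 6 counts were present in 50 WT cells, 5 Tcf7-/- cells and 2 Vav-cre cells. The most in a cell was 5, 4 and 3. The libraries differ in depth, so each cell was also thinned to 10000 counts, which left out 5 WT, 23 Tcf7-/- and 9 Vav-cre cells. At 1 thinned count or more the means were 2.53, 0.836 and 0.184, in the same order.

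**Figure D4:**
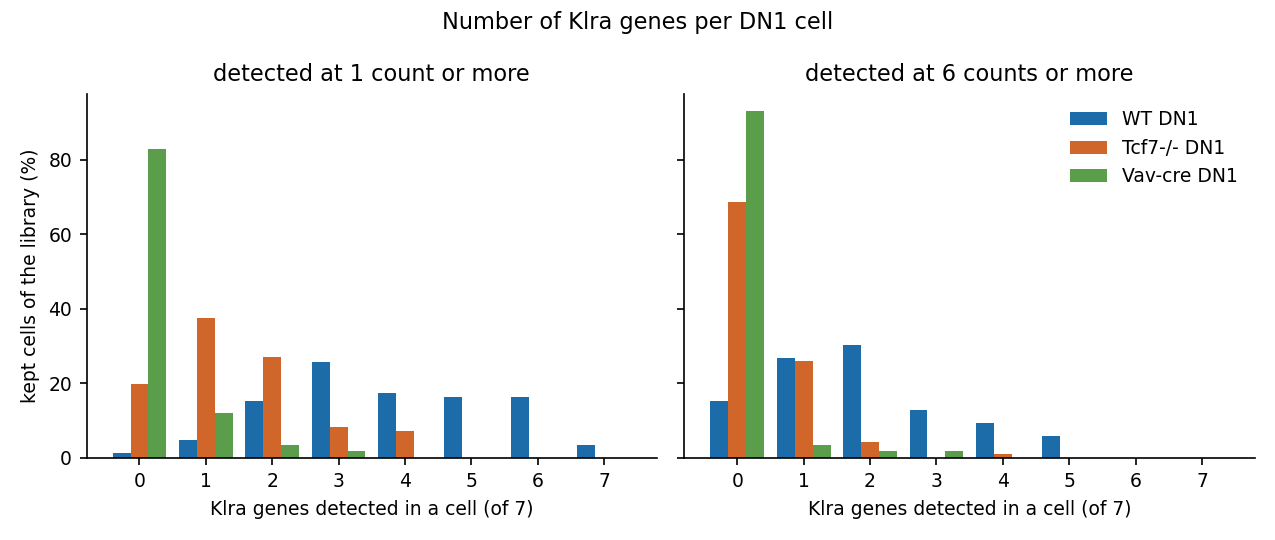
Share of kept cells (y axis, %) by the number of members detected in the cell (x axis, of 7) in the 3 DN1 libraries, at 1 count or more (left) and 6 counts or more (right). At 6 counts, 66 of 96 Tcf7-/- and 54 of 58 Vav-cre cells are at 0, against 13 of 86 WT cells.

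The combinations in WT were a mosaic. The 73 positive WT cells showed 37 distinct sets of members at 6 counts, and 24 of these sets were seen in a single cell. The commonest set was Klra9 alone, in 12 cells. The commonest set in Tcf7-/- was Klra5 alone, in 15 cells, and the 30 positive cells showed 6 sets. By counts per kb, Klra9 led in 43 of the 73 WT cells, while in Tcf7-/- Klra5 led in 17 and Klra1 in 11 of 30 cells, and in Vav-cre Klra5 led in 4 of 4. Klra5 never stood alone in WT, where 0 of 19 positive cells lacked another member at 6 counts. In Tcf7-/- 15 of 20 did, and in Vav-cre 2 of 4 did. Members other than Klra5 were rarer over all kept cells of the knockout libraries as well. WT had 73 cells, out of 86, with any of them at 6 counts. For Tcf7-/- the number was 15 out of 96, and for Vav-cre it was 2 out of 58. The contrast between WT and Tcf7-/- was thus not limited to Klra5-positive cells. Whether these cells differ from the rest of their library in this was not tested. Of the 12 Tcf7-/- cells with Klra1, 10 had no other member. Klra1 and Klra5 were together in 2 cells, a phi coefficient of -0.04 over the 96 Tcf7-/- cells, close to no association. Within WT, Klra9 was present in 16 of 19 cells with Klra5 (84.2%), 17 of 20 with Klra13-ps (85%), 8 of 9 with Klra6, 13 of 16 with Klra3, 19 of 26 with Klra1 and 13 of 19 with Klra7. The phi coefficients of the 21 pairs of members over the 86 cells, a description with no test, were weak, from -0.05 to 0.23. The Pearson correlation of a member with the sum of the others, on log2(CPM + 10) over the same cells, was between 0.09 (Klra1) and 0.30 (Klra9). These values share the depth of each cell, and the family level had a correlation of -0.09 with that depth.

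The share of cells with NK markers differed between the DN1 libraries as well. Cells with at least 3 of the 8 NK markers at 2 counts or more, called NK-marker cells, were 80 of the 86 in WT DN1, 39 of the 96 in Tcf7-/- DN1 and 12 of the 58 in Vav-cre DN1, and 0 cells in all DN2-3 libraries. They held 99.1%, 85.5% and 98.3% of the family's counts. Within NK-marker cells the CPM of the 6 members was still lower and that of Klra5 was higher. Klra9 had 1451 CPM in WT, 40.3 CPM in Tcf7-/- and 0 counts in Vav-cre. Klra1 had 388, 68.3 and 80.995 CPM, and Klra3 had 244, 1.12 and 95.5 CPM. In Vav-cre Klra1 reached 6 counts in 2 of the 12 cells and Klra3 in 1. With 0 of 12 cells, a share of up to 26.5% is allowed, above the WT shares of Klra6 (11.25%), Klra7 (21.25%) and Klra13-ps (25%). By share of cells, the intervals of Klra1, Klra6 and Klra7 in Tcf7-/- overlapped WT. In Vav-cre those of all members but Klra9 did. Klra5 had 277 CPM in WT, 774 CPM in Tcf7-/- and 839 CPM in Vav-cre, log2 ratios of 1.45 and 1.56, so that it was past 2-fold in both and its direction in Vav-cre changed with the cells compared. It reached 6 counts in 19 of 80 WT (23.8%, 14.95 to 34.6%), 17 of 39 Tcf7-/- (43.6%, 27.8 to 60.4%) and 4 of 12 Vav-cre cells (33.3%, 9.92 to 65.1%), intervals that overlap. With the markers required at 6 counts, 66 WT, 26 Tcf7-/- and 9 Vav-cre cells were left, and the log2 ratios of Klra5 were 1.97 and 1.84 while Klra9 had a log2 ratio of -4.61 in Tcf7-/- and 0 counts in Vav-cre. Cells with CD3 transcripts differed in number too. With 6 or more summed counts of Cd3d, Cd3e and Cd3g, 86 of 86 WT, 93 of 96 Tcf7-/- and 20 of 58 cells of Vav-cre DN1 were CD3-positive, and these held 98.6% of the family's counts in Vav-cre. Among them Klra5 had 502 CPM in Vav-cre against 258 CPM in WT, a log2 ratio of 0.94, and reached 6 counts in 4 of 20 cells (20%, 5.73 to 43.7%). Klra6, Klra7, Klra9 and Klra13-ps stayed at 0 counts there, and Klra1 (46.4 CPM) and Klra3 (56.7 CPM) had log2 ratios of -2.75 and -1.83. The NK-marker cells are chosen by genes that differ between the libraries themselves, and they are few in Vav-cre. CD3-positive cells had a median CD3 count of 231.5 in WT, 25 in Tcf7-/- and 37.5 in Vav-cre. Low counts of the CD3 genes and NK markers were not compared between cells with the same barcode number.

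**Figure D5:**
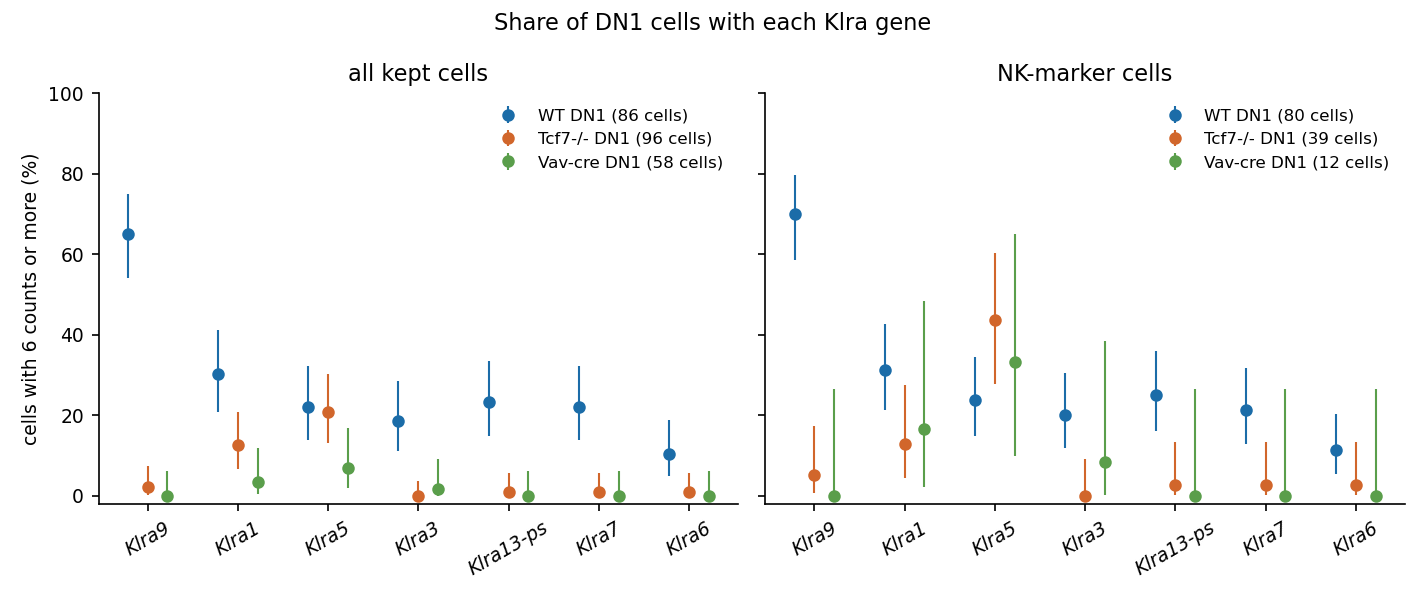
Share of DN1 cells with 6 or more counts of each member (points, %) with 95% Clopper-Pearson intervals, in all kept cells (left) and in NK-marker cells (right). Klra9 is at 65.1% of all WT cells and 2.08% of Tcf7-/- cells, and Klra5 is the one member whose Tcf7-/- and Vav-cre points lie above WT among NK-marker cells, with overlapping intervals.

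The cells that carried Klra5 and those that carried Klra1 in Tcf7-/- DN1 differed in the share with some NK transcripts and not in others, with no test made. Of the 20 cells with Klra5, 17 were NK-marker cells, 13 had 6 or more counts of Klrb1c, which encodes NK1.1, and 14 had Klrk1, which encodes NKG2D. Of the 12 cells with Klra1, 5 were NK-marker cells, 2 had Klrb1c and 1 had Klrk1. Klrd1 was in 14 of the 20 and 7 of the 12, and Tyrobp in 5 of the 20 and 3 of the 12. All 20 and all 12 had 6 or more counts of Cd3g. Cd28, a T-cell costimulatory receptor, was in 4 of 20 Klra5-positive Tcf7-/- cells, against 11 of 19 in WT. Among cells with fewer than 6 counts of Klra5, Cd28 was in 1 of 76 in Tcf7-/- and 38 of 67 in WT. The difference in Cd28 was thus one between the libraries and not particular to Klra5-positive cells. The 4 Klra5-positive Vav-cre cells all had Klrd1 (CD94), Klrk1, Cd3g and Il7r at 6 counts or more, and none had Kit. Of the 54 other Vav-cre cells, 7 had Klrd1, 13 had Klrk1, 10 had Cd3g, 43 had Il7r and 6 had Kit. Il7r and Kit therefore do not set these 4 cells apart. In WT DN1 the 56 cells with Klra9 had higher Klrb1c (466 CPM) and Klrk1 (836 CPM) than the 30 others (169 and 494 CPM), and Tcf7 itself was alike, at 129 and 143 CPM.

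Of the Klra genes outside the 7 members, 13 are listed in the matrix and 10 had 0 counts in all kept cells. Klra4, which encodes the activating receptor Ly49D, and Klra2 were among these. Klra8, which encodes the activating Ly49H, had 12.1 CPM in WT DN1, 1 count in Tcf7-/- and 0 in Vav-cre. Klra10 had 28.8 CPM in WT, 1 count in Tcf7-/- and 0 in Vav-cre. Klra17 had 1 count in all. Reads of near-identical members can be hard to place. Of the 100-base windows of each member's longest transcript, between 95.6% (Klra9, which shares windows with Klra8 and Klra11-ps) and 100% (Klra1, Klra5 and Klra6) occur in no other Klra transcript of the annotation. How shared reads were counted is not given in the sources used here.

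Other receptors of the NK gene complex were lower in the knockout libraries by less. Of 13 measured, 5 were at least 2-fold lower and 2 higher in Tcf7-/- DN1, with a median log2 ratio of -0.88, and 7 lower and 2 higher in Vav-cre DN1, with a median of -1.02. Over all genes tested, 5.34% and 9.64% were lower and 10.4% and 18% higher, so the share lower is above that background and the count higher is near it. The median of the members was -3.11 and -3.76 (-3.76 also with members at 0 counts set to the floor), and that of all genes tested 0.07 and 0.13. Klrd1, the CD94 chain of the NKG2 receptors, had 1125 CPM in WT, 444 CPM in Tcf7-/- and 295 CPM in Vav-cre. Klrk1 had 728, 356 and 354 CPM. Klrb1b, an inhibitory NKR-P1 receptor, went the other way, with 29.1 CPM in WT, 237 CPM in Tcf7-/- and 508 CPM in Vav-cre. Styk1, a kinase-like gene of the same complex, had 295, 45.2 and 0.646 CPM.

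Most of the genes through which Ly49 receptors signal, and their ligands, lay within 2-fold of WT. Of 13 signalling genes, 2 were higher and 0 lower in Tcf7-/- DN1, and 2 higher and 3 lower in Vav-cre DN1, the kinase gene Lck, Plcg1 and Ptpn6. Of all genes tested, 10.4% and 18% were higher and 5.34% and 9.64% lower, so the 3 are above the background of lower genes and the others near or under it. Tyrobp, which encodes the adaptor DAP12, had 304 CPM in WT, 677 CPM in Tcf7-/- and 963 CPM in Vav-cre. Ptpn6, which encodes the phosphatase SHP-1 of inhibitory receptors, had 574, 336 and 269 CPM. Of 8 MHC class I genes, 0 were 2-fold higher or lower in either: the ligand gene H2-K1 had 2638, 3139 and 3884 CPM and B2m 8568, 10668 and 13128 CPM. Of 13 transcription factors of NK receptor expression, 2 were higher and 3 lower in Tcf7-/-, and 4 higher and 2 lower in Vav-cre. Beside the shares over all genes tested given above, the 3 lower in Tcf7-/- are above background. The other counts, the 4 higher in Vav-cre among them, are near it for 13 genes, and nothing is drawn from them. Tcf7 itself is among the 4, with a log2 ratio of 1.40. Tbx21 (T-bet) had 114, 30.5 and 12.9 CPM, and Runx3 had 234, 214 and 190.0 CPM. Markers of other cell types differed too. T-cell markers summed to 5606 CPM in WT, 2795 CPM in Tcf7-/- and 1893 CPM in Vav-cre, and markers of NKT and memory-like T cells to 1891, 1148 and 1060 CPM, lower along with the family. Early progenitor markers summed to 103 CPM in WT, 689 CPM in Tcf7-/- and 528 CPM in Vav-cre, with Cd34 and Mpo at 0 counts in WT, and 5 and 7 of 8 were at least 2-fold higher. Markers of type 3 innate lymphoid cells summed to 2670 CPM, 2181 CPM and 4971 CPM, and 4 and 6 of 8 were higher. Their part in the family's lower level was not tested, beside the values within NK-marker and CD3-positive cells given above.

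The genes most like the family across the 86 WT DN1 cells were taken by Pearson correlation with its summed level, both as log2(CPM + 10), among 3221 genes. Nkg7, a cytotoxic granule gene, was the first at 0.49, then Ms4a4b at 0.48, Klre1 at 0.44, Klrb1c at 0.42, Ly6c2 at 0.41, Inpp4b at 0.40, Klrc2 at 0.39, Ctsw at 0.36 and Klrd1 and Tle4 at 0.35. These correlations are weak, come from 1 plate and share the depth of each cell. All 10 had their highest CPM in WT among the DN1 libraries. Tle4, for example, had 129 CPM in WT, 102 CPM in Tcf7-/- and 33.6 CPM in Vav-cre, and Ly6c2 had 1545, 321 and 196 CPM. The 3221 genes had to pass limits on level and detection in WT alone, which favors genes high there. How many of them were highest in WT is not given here, so nothing is drawn from the 10.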

How the data were processed

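Single-cell RNA was measured on 8 plates. Per the submitters' processing notes, alignment used TopHat2 2.1.1 and counting used HTSeq, on mm10, also given as GRCm38. The deposited matrix holds whole-number counts for each cell, without normalization. The authors' second file holds log2 values, log2(TPM/10 + 1), which served as an alternative. Collapse of molecular identifiers is not given in the sources used here. From the 23154 entries, 27 with a date in place of a symbol were dropped. Cells with 1000 or more detected genes were kept, their counts were summed per library and scaled to CPM, and ratios were taken with 10 CPM added. Genes were tested for a 2-fold ratio where a library had 10 CPM or more. Intervals at 95% are exact (Poisson, conditional binomial, Clopper-Pearson) and cover counting error only, since PCR copies are not independent. With 0 counts, a floor of 3 counts per library was used. No doublet caller was run on these sorted plates. All 7 members were named in each library, and the 10 genes most like them had 50 CPM or more in WT DN1 and a count in 20% of its cells. From each list, genes of high level or large ratio were named. The members and lists were chosen with earlier results of these data known. The ratio script was tested on simulated data. Python 3.11.15, numpy 2.4.6, pandas 2.3.3 and scipy 1.17.1 were used.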

Additional observations from a re-analysis of the deposited data

Results flagged for a closer look

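Klra5 differed from WT DN1 in opposite directions in the knockout libraries, with a log2 ratio of 0.40 in the Tcf7-/- library and -0.42 in the Vav-cre library. The difference between these ratios was not tested, since each is 1 plate. Both share the WT plate, and both ratios were above 1 among NK-marker cells (1.45 and 1.56).

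The cells left out for fewer than 1000 detected genes still held members of the family in WT DN1. The 10 such cells had 44 family counts, 1759 CPM of their 25019 counts, in 5 of the cells. The 8 left-out cells of WT DN2-3 had 20 counts, 1052 CPM, in 1 cell, and the 38 of Vav-cre DN1 had 3 counts, 47.03 CPM.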

How the results depend on the processing

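No direction changed among the 3 ratios of the family sum and the 3 mean numbers of members, and 38 of 70 alternative values stayed within the counting interval. The family ratio of Tcf7-/- to WT DN1, -2.48 on the log2 scale, was -2.33 with thinned cells, -2.55 without the leading cell of each library, -2.13 with cells weighted equally, -2.17 from the deposited log2 values and -1.56 without Klra9. That of Vav-cre, -3.48, was -4.10 without the leading cells and -2.48 without Klra9. Among NK-marker cells the ratios were -1.59 and -1.49, and with markers at 6 counts, an alternative chosen after seeing the data, -1.15 and -1.24. Among CD3-positive cells, also added after seeing the data, that of Vav-cre was -2.13. The ratio of WT DN2-3 to WT DN1, -7.32, was -7.01 with cells of 500 or more genes, -7.57 with thinned cells, -7.71 without the leading cells, -7.55 with cells weighted equally, -8.42 with 1 CPM added and -6.44 without Klra9.

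The mean number of members per WT cell, 3.85, was 1.92 at 6 counts, 2.53 with thinned cells, 1.96 with thinned cells at 2 counts (added after seeing the data) and 2.91 without Klra9. In Tcf7-/-, 1.46 became 0.385, 0.836, 0.466 and 1.08 in that order, and 1.73 in cells with NK markers at 6 counts. In Vav-cre, 0.241 became 0.121 at 6 counts, 0.102 with thinned cells at 2 counts, 0.750 in NK-marker cells, 1.00 in those with markers at 6 counts and 0.450 in CD3-positive cells.

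Of 217 alternative values for single members, all 195 of ratios past 2-fold stayed past 2-fold in the same direction. Of 22 for Klra5 in the DN1 comparisons, 19 kept their sign, and the 3 that turned were those of Vav-cre among NK-marker cells at 2 or 6 counts (1.56 and 1.84) and CD3-positive cells (0.94). Klra5 was past 2-fold in 4, all among NK-marker cells (1.45 and 1.97 in Tcf7-/-). No paired analysis was possible because the groups compared are 1 plate each, and only Lck-cre DN2-3 has 2. Depth limits Vav-cre DN1 most, where 3 counts are 1.94 CPM.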
